A study of Mus musculus with 2 samples.

Results

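Presomitic mesoderm (PSM) is the unsegmented tissue beside the neural tube of the embryo from which somites, the blocks that form vertebrae, ribs and skeletal muscle, bud off one after another. PSM cells were picked from a single-cell RNA-seq study of chimaeric mouse embryos by their own counts of spliced transcript molecules (UMIs). A member cell held at least 2 UMIs of Tbx6, a T-box factor of paraxial mesoderm, and at least 8 UMIs of Tbx6, Dll3 and Hes7 together, while the embryonic globins Hba-x, Hbb-bh1 and Hbb-y made up less than 0.5% of its spliced UMIs. This rule took 304 of 18233 cells, of which 118 of 8981 (1.31%, exact 95% Clopper-Pearson interval 1.09 to 1.57) lay in the tdTom+ library and 186 of 9252 (2.01%, 1.73 to 2.32) in the tdTom- library. Because the cells were chosen on measured values, the levels of Tbx6, Dll3 and Hes7 and every comparison of members with other cells are descriptions and carry no test.

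The study asked what loss of Gata1, the master regulator of red blood cell formation, does in embryos in which mutant and normal cells develop side by side. The tdTom+ fraction (labelled E8.5) held cells derived from the injected embryonic stem cells, which carry the fluorescent protein tdTomato and a 38 bp frameshift in exon 4 of Gata1, and the tdTom- fraction (labelled E8.6) held wild-type cells of the C57BL/6 host blastocysts. Both fractions came from 6 pooled chimaeric embryos, dissociated whole and sorted alive on tdTomato, and each was run as 1 library of 10x Genomics v3 chemistry. The study's methods give E8.5 for all 6 embryos, so the differing labels do not mark embryos of different age. All mutant cells descend from 1 clone of a male stem cell line, so the loss of Gata1 cannot be told apart from the clone, its sex and strain, or the sort, and with 1 library per fraction no difference has a replicate check. Intervals given below cover counting error only. The spread between embryos is not in them, nor, for folds and unspliced shares, is the spread between cells.

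Segmentation runs on an oscillator. In PSM cells the Notch, Wnt and FGF pathways switch their own inhibitors on and off in waves that sweep from the tail bud forward, and the transcriptional repressor Hes7 and the Notch-modifying enzyme Lfng are core parts of this clock. At the posterior end FGF and Wnt ligands keep the cells immature, and towards the anterior end, where retinoic acid is made, Mesp2 sets the position of the next somite boundary and the cells take up somitic genes such as Meox1 and Tcf15.

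The DNA just upstream of 3 of these genes is shown because Hes7, Lfng and Msgn1, a bHLH factor of the PSM, carry much of what follows. Each window runs from 250 to 51 bases before the start of the RefSeq transcript (GRCm38.p6), 5' to 3' on the strand of the gene, and capitals mark matches on either strand to the letters TGGGAA (bound by the Notch effector RBPJ), CTTTGA (TCF/LEF factors of the Wnt pathway), GGTGTG (T-box factors), CACGTG and CACGCG (the E-box and C-site of hairy-type repressors) or CACNAG (the N-box of the same family). The windows lie at chr11:69120203-69120402 (plus strand) for Hes7, chr5:140607091-140607290 (plus strand) for Lfng and chr12:11208999-11209198 (minus strand) for Msgn1.
Hes7: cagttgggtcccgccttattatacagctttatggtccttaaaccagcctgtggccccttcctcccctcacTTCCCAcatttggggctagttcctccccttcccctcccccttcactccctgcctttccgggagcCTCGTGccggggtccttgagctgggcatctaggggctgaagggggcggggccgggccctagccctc
Lfng: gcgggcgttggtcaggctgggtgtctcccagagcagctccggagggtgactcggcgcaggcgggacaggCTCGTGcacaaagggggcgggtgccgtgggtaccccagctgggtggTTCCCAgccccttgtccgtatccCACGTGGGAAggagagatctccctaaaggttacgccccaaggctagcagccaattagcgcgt
Msgn1: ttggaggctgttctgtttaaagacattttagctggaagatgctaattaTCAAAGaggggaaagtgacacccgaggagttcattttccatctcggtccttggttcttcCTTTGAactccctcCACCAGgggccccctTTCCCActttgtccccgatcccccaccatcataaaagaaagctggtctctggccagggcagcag
The Hes7 window held 1 RBPJ match, 180 to 175 bases before the start, and 1 N-box 116 to 111 bases before it. In the Lfng window there were 2 RBPJ matches, at 135 to 130 and 108 to 103 bases, and the second of them overlapped a CACGTG at 112 to 107, with an N-box at 181 to 176. The Msgn1 window had 2 TCF/LEF matches, at 202 to 197 and 143 to 138 bases, 1 RBPJ match at 114 to 109 and 1 N-box at 129 to 124. Of 32851 windows of the same length and place before all RefSeq genes, 17.9% held the RBPJ letters, 11.8% those of TCF/LEF, 13.4% those of the T-box, 4.34% the E-box, 5.74% the C-site and 31.1% the N-box, and a match is a description only. The window of Mesp2 (chr7:79810477-79810676, plus strand) held none of them.

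Depth was alike in both sets of members. The tdTom+ PSM cells had a median of 18109 spliced UMIs (7298 to 62888) and 4143.5 genes, and the tdTom- PSM cells 16655 spliced UMIs (5778 to 54500) and 4011 genes, with 1.78% and 1.67% mitochondrial counts. Summed over members this gave 2446797 and 3462515 spliced UMIs, the base of every level below, which is a scaled count, CPM, that sets each such sum to the same total and, unless said otherwise, is printed for tdTom+ first and tdTom- second. A lower CPM can mean fewer cells that hold a transcript or less of it per cell, which a sum cannot tell apart. The libraries shared 18 barcodes, among them 1 of a member. Scrublet, a caller of cell doublets, marked 11 members in each fraction (9.32% and 5.91%, against 4.20% and 5.60% of the whole libraries), and these stayed in. Also, 3 tdTom+ members and 0 tdTom- members met a rule for endothelial cells (at least 2 UMIs of Cdh5 and at least 5 of Cdh5, Pecam1 and Esam).

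The label PSM matched markers that the rule did not read. Msgn1 stood at 33.1 and 34.1 CPM in the members, against 0.670 and 0.649 in somitic cells (382 and 431 non-members with Meox1 and Tcf15), 0.509 and 0.521 in caudal cells (186 and 187 non-members with Nkx1-2 and T, the caudal epiblast and neuromesodermal progenitors) and 0.144 and 0 in endothelial cells. Somitic and caudal cells were also required to have fewer than 2 Tbx6 UMIs and to meet the globin limit. The Tbx6 limit bears on their low levels of other PSM genes. Msgn1 UMIs were found in 52 tdTom+ members (44.1%, 34.9 to 53.5) and 73 tdTom- members (39.2%, 32.2 to 46.7), and after thinning each cell to 8000 UMIs, which dropped 2 and 4 shallower members, in 22.4% and 25.8%. Endothelial cells, which should lack the gene, showed it in 1 of 345 and 0 of 197 cells at median depths of 18567 and 16571 UMIs, far below its share in PSM cells.

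Dll1, the activating Notch ligand of the PSM, was at 109 and 108 CPM in members and at 10.3 and 11.4 in somitic and 4.83 and 4.95 in caudal cells. Rspo3, a secreted amplifier of Wnt signalling, was at 523 and 552 CPM in members, 44.1 and 39.9 in somitic and 200 and 257 in caudal cells. Dll1 thus separated PSM from both neighbours as these were chosen, with few Tbx6 UMIs, whereas Rspo3 was shared in part with the caudal cells. The transcriptional coregulator Cited1 was at 1291 and 1353 CPM, with 124 and 121 in somitic cells and 169 and 142 in caudal cells. For the chosen genes themselves the sums were 191 and 206 CPM of Tbx6, 235 and 271 of Dll3 and 219 and 274 of Hes7.

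**Figure D1:**
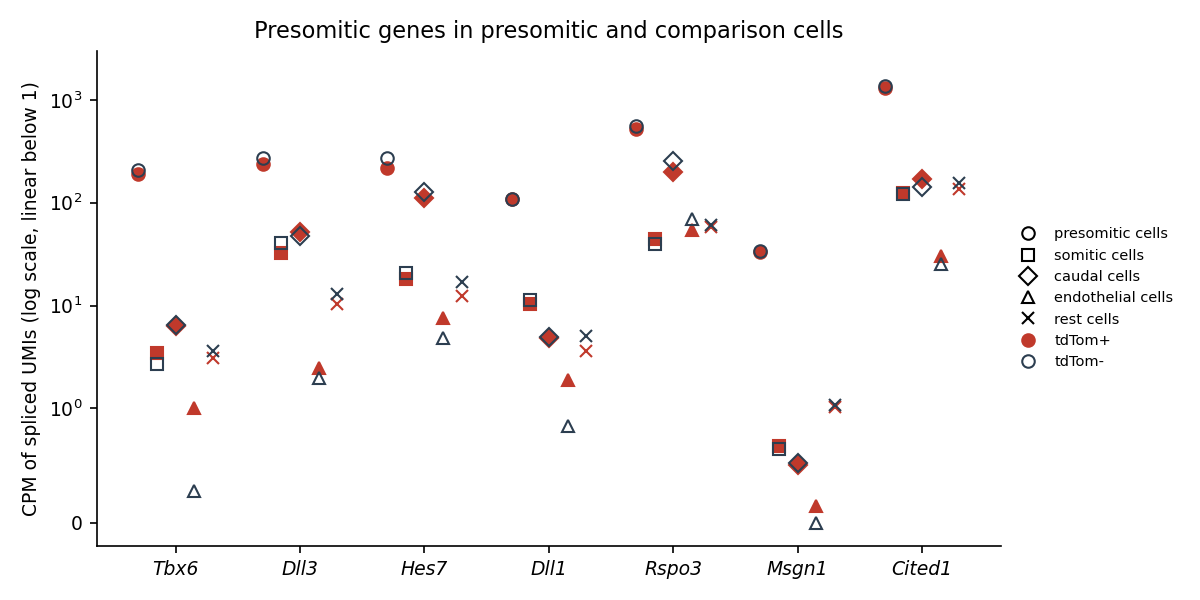
Level (CPM of summed spliced UMIs, log scale, linear below 1) of 7 genes in PSM, somitic, caudal and endothelial cells and in the rest, with filled or red symbols for tdTom+ and open or dark symbols for tdTom-. Tbx6, Dll3 and Hes7 chose the PSM cells, while Msgn1 (33.1 and 34.1 CPM) and Dll1 (109 and 108) did not and were at or below 1.08 and 11.4 CPM in every other set shown. Cells just short of the rule, not drawn as a set, held more of both (33.1 and 47.0 CPM of Msgn1). The sets overlap, since the rest is all low-globin cells that are not PSM, 3 tdTom+ PSM cells are also in the endothelial set, and 11 cells are both somitic and caudal.

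Around the limit of the rule, members with a sum of 8 or 9 UMIs (27 and 34 cells) had 427 and 630 CPM of Rspo3 and 1124 and 1535 of Cited1, and cells with 2 or more Tbx6 UMIs that fell just short with a sum of 6 or 7 (34 and 35 cells) had 430 and 517 CPM of Rspo3 and 1084 and 1400 of Cited1. Meox1, on 6 to 31 UMIs, was higher inside the limit in tdTom+ (56.5 against 9.45 CPM) and higher outside it in tdTom- (29.1 against 58.3), and Tcf15 was at 113 inside and 56.7 outside in tdTom+ and at 47.3 and 43.3 in tdTom-. Msgn1, on 13 to 25 UMIs, was higher outside the limit (33.1 and 47.0 CPM) than inside it (23.7 and 41.9). Dll1 was lower outside, at 66.2 and 97.8 CPM, and T was higher outside in both fractions. The limit on the sum thus did not part cells with these markers from cells without them. A further 44 and 52 cells met the sum with 1 UMI of Tbx6, and 4 and 6 were kept out by globins alone.

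The share of PSM cells was lower in the tdTom+ fraction, and the intervals of the fractions did not overlap under the rule as given. They did with a sum of at least 5 (1.65 to 2.23 and 2.20 to 2.85) and after thinning each cell to 8000 UMIs (0.188 to 0.429 and 0.378 to 0.698). Among cells under the globin limit the shares were 1.53% (1.27 to 1.83) and 2.49% (2.15 to 2.87). Neighbouring tissues showed less of a gap, with somitic cells (4.25%, 3.85 to 4.69, and 4.66%, 4.24 to 5.11) and caudal cells (2.07%, 1.79 to 2.39, and 2.02%, 1.74 to 2.33) overlapping between fractions. Endothelial cells parted too, in the other direction (3.84%, 3.45 to 4.26, and 2.13%, 1.84 to 2.44), so a gap between fractions was not particular to PSM cells. The sort and the number of embryos that gave cells to each fraction bear on such shares, and their part was not tested.

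Set against the rest of the embryo (7600 and 7278 non-members with the same globin limit), PSM cells had 271 of 13589 genes with at least 100 UMIs more than 2-fold higher in both fractions (1.99%) and 999 more than 2-fold lower (7.35%), around a median log2 difference over all genes of -0.08 and -0.11. Besides the chosen genes, the 20 with the largest difference included Msgn1 (log2 fold 5.00 in tdTom+ and 4.98 in tdTom-), Dll1 (4.92 and 4.40) and Fgf4, a ligand of the tail bud (4.68 and 4.29). The set also held genes less often named with this tissue, such as the lectin gene Chodl (5.97 and 5.48), the sphingosine phosphate receptor S1pr5 (4.98 and 5.45), the synaptic vesicle protein Sv2b (4.73 and 4.63), the protocadherin Pcdh19 (4.12 and 3.59), Ifitm5 (3.94 and 4.11), the protease inhibitor Slpi (4.69 and 3.70) and the uncharacterised 3110004A20Rik (4.98 and 5.06). For each of these the smaller fold of the pair was 3.59 or more.

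Among listed groups, 10 of 13 tested genes of posterior mesoderm and tail bud were past 2-fold higher and 1 lower, with a median of 2.30 and 2.22, and 13 of 34 Hox and Cdx genes were higher and 3 lower, with a median of 1.00 and 1.00. Genes of other tissues went the other way. Of the cardiac list 6 of 6 were lower, of the endodermal list 5 of 6, of the endothelial list 6 of 8, of the lateral, intermediate and extraembryonic mesoderm list 8 of 12 and of the neural list 5 of 10, with 1 neural gene higher. The UMI minimum was summed over PSM cells and the rest, which holds most UMIs, so a gene could meet it through the rest alone. These counts are descriptions. Of 42 S-phase and 52 G2/M genes 0 were past 2-fold in either direction.

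Of 8 tested genes of the clock's Notch arm 4 were past 2-fold above the rest and 0 below, namely Hes7, which is in the rule, Lfng, Nrarp and Hes5. Leaving out Hes7, 3 of 7 were higher and 0 lower, with a median of 0.61 and 0.29. Lfng was at 30.7 and 44.5 CPM (8.17 and 14.2 in somitic cells) and was found in 47 and 77 members (39.8% and 41.4%, and 25.9% and 27.5% after thinning). Nrarp, a Notch-induced inhibitor of the pathway, was at 58.0 and 67.6 CPM, and the repressor Hes5 at 47.0 and 65.3. Hes1, a related repressor that many tissues use, was at 28.2 and 27.1 CPM in PSM and 43.3 and 46.2 in the rest, and Heyl had 1 and 5 UMIs in all. Of the receptors, Notch1 (83.0 and 79.1 CPM against 18.7 and 20.1) stood above its level in the rest, which pools many tissues, while Notch2 (7.36 and 6.64) and Notch3 (12.3 and 18.2) were low counts. Rbpj, the DNA-binding partner of active Notch, was at 22.1 and 26.3 CPM.

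Targets of the Wnt arm were measured in the members as a whole. Sp5, a direct Wnt target, was at 205 and 230 CPM, the feedback inhibitors Nkd1 at 109 and 100, Axin2 at 40.5 and 34.1 and Dkk1 at 66.6 and 69.9, and Dkk1 was at 5.89 and 5.84 in somitic cells. Lef1, a nuclear partner of beta-catenin, was at 379 and 362 CPM in PSM against 81.3 and 88.5 in the rest. Of the FGF arm, the phosphatases Dusp4 and Dusp6, which switch off MAP kinases, were at 114 and 104 and at 64.2 and 60.4 CPM, and Snai1, a repressor of adhesion genes, at 39.2 and 48.5.

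Against somitic cells, the step that PSM cells are next to take, 189 of 8791 genes were past 2-fold higher in PSM in both fractions (2.15%) and 290 lower (3.3%). Fgf4 was the extreme, with 37.2 and 28.3 CPM in PSM against 0.536 and 0 in somitic cells, that is a log2 fold of 6.12 in tdTom+ and of at least 6.18 in tdTom- taken at a floor of 3 counts over the group. Other ligands of the tail bud followed, Fgf17 (4.29 and 4.09), Fgf3 (4.04 and 4.36) and Wnt3a (4.02 and 5.34), together with Eogt, which adds a sugar to Notch and other receptors (4.10 and 4.91). Of 13 posterior genes 11 were higher and 0 lower, with a median of 3.74 and 4.09 where all genes had -0.04 and -0.05, and of 21 Hox and Cdx genes 16 were higher and 0 lower, with a median of 2.40 and 2.42. In the list of determination front and somite genes, leaving out Meox1 and Tcf15, which chose the somitic cells, 1 of 16 was higher and 9 lower, with a median of -2.57 and -1.87. The UMI minimum was summed over both sets, so a gene could meet it through PSM or somitic cells alone, as Fgf4 did through PSM cells. All counts against somitic cells are therefore descriptions. Tbx1 (-4.61 and -4.32), the cell adhesion receptor Flrt2 (-3.99 and -3.97) and the homeobox factor Meox2 (-4.36 and -4.05) were among the genes of the lower end, and so was Tbx18, a factor of the anterior part of each somite, with 0 and 4 UMIs in PSM.

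Caudal cells were nearer to PSM. Here 112 of 7810 genes were past 2-fold higher (1.43%) and 112 lower (1.43%). Besides Msgn1 (6.02, 4.13 to 9.09, and 6.03, 4.15 to 9.09, on 2 and 2 UMIs in the caudal cells) and Dll1 (4.49 and 4.45), the forkhead factor Foxc1 (4.68 and 3.84), Pcdh19 (3.88 and 4.15), the matrix protein Adamtsl2 (4.65, 3.02 to 6.98, on 3 caudal UMIs, and 4.01) and Fgf4 (3.49 and 3.59) were higher. Lower were the neural progenitor repressor Hes3 (-4.51 and -3.31), Fgfbp3, which binds FGFs (-3.30 and -2.36), and Enc1 (-2.14 and -2.15). Leaving out Nkx1-2 and T, which chose the caudal cells, 3 of 11 posterior genes were higher and 0 lower (median -0.37 and -0.12), and 7 of 10 determination front genes were higher and 0 lower (median 1.45 and 1.86). These counts are descriptions too, since a gene such as Msgn1 met the summed UMI minimum through PSM cells alone. Sox2, a factor of neural and neuromesodermal cells, was at 18.4 and 40.7 CPM in PSM and 82.6 and 176 in caudal cells.

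PSM cells were then set along the axis by genes that are not in the member rule. Cells with at least 2 UMIs of T, the tail bud factor Brachyury, and fewer than 2 of Meox1 and Tcf15 together were called posterior, and those with the reverse anterior, so that T, Meox1 and Tcf15 are no findings between the classes. The posterior class held 69 tdTom+ cells (58.5% of members, 49.0 to 67.5) and 102 tdTom- cells (54.8%, 47.4 to 62.1), and the anterior class 14 (11.9%, 6.64 to 19.1) and 32 (17.2%, 12.1 to 23.4). A further 7 and 11 cells met both conditions and 28 and 41 neither. The classes are ranges and not cell types, as 39 and 64 members (33.1% and 34.4%) lay within 1 UMI of a limit. After thinning, 10.3% (5.46 to 17.4) of tdTom+ and 18.7% (13.3 to 25.1) of tdTom- members were anterior and 34.5% and 39.6% posterior, and the intervals of the fractions overlapped for both classes. Median depths were 17866 and 15268 UMIs in the anterior and 17938 and 17370 in the posterior cells.

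Between the classes, 36 of 4819 genes were past 2-fold higher in the anterior cells of both fractions (0.747%) and 74 lower (1.54%), with a median over all genes of -0.03 and 0.00066. The UMI minimum was summed over both classes, and the posterior class holds most UMIs, so a gene could meet it through that class alone. Mesp2 and Pcdh8, mostly in anterior cells, missed it with 69 and 66 UMIs. The balance of 36 and 74 therefore depends in part on the minimum and is a description. The front of the PSM was marked by Aldh1a2, the enzyme that makes retinoic acid, with 83 UMIs in 13 of 14 anterior against 17 in 12 of 69 posterior tdTom+ cells and 203 in 29 of 32 against 47 in 22 of 102 tdTom- cells, or log2 4.67 (3.91 to 5.52) and 3.76 (3.30 to 4.25). The FGF ligand Fgf18 differed by 4.90 (3.73 to 6.30) and 4.56 (3.80 to 5.41). For both genes the intervals of the fractions overlapped. The forkhead factors Foxc2 (4.34 and 4.07), Foxc1 (2.01 and 2.12) and Foxp1 (1.90 and 1.96) also differed by much the same amount in each. Mesp1, a bHLH factor of the next boundary, was higher by 3.23 and 4.29, the stress gene Gadd45g by 1.82 and 3.87, the arginase gene Arg1 by 3.60 and 3.03, and the parathyroid hormone receptor Pth1r by 2.38 and 2.36.

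The genes that set the boundary itself sat in very few cells. Mesp2 had 27 UMIs in 3 anterior tdTom+ cells and 40 in 8 anterior tdTom- cells, against 1 and 1 in the posterior cells. Its partner and antagonist Ripply2 had 3 UMIs in 1 anterior cell and 37 in 6, against 0 and 0. Ripply1 had 0 UMIs in members of either fraction, which with a floor of 3 counts is as far as this depth goes. Pcdh8, a protocadherin of forming somites, had 22 and 39 UMIs in the anterior and 0 and 5 in the posterior cells. In the list of determination front and somite genes, leaving out Meox1 and Tcf15, 4 of 7 tested were higher in the anterior class and 1 lower (median 2.01 and 2.12), and the one lower was Cdh11, an adhesion molecule of mesenchyme (-1.34 and -1.35).

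The back of the PSM had the mirror image. Cyp26a1, which breaks retinoic acid down, had 2 and 4 UMIs in anterior cells against 243 and 429 in posterior cells, or log2 -4.54 (-7.59 to -2.67) and -5.09, so the enzymes that make and remove retinoic acid lay at opposite ends. Fgf17 had 0 UMIs in the anterior tdTom+ cells against 269 (log2 -4.10 or lower, taken at a floor of 3 counts over the group) and differed by -5.01 in tdTom- cells. Fgf4 had 0 and 0 anterior UMIs against 80 and 76, and Wnt3a, a posterior Wnt ligand, 0 and 0 against 48 and 59. Fgf8, the main posterior FGF, differed less. It was at 131 CPM against 399 in tdTom+ cells (-1.60, -2.13 to -1.11) and at 174 against 421 in tdTom- cells (-1.28, -1.59 to -0.98). The Wnt ligand Wnt5b was posterior too (-3.51, -5.81 to -1.94, on 3 anterior UMIs, and -3.51), as were the homeobox factor Evx1 (-4.63, -9.94 to -2.12, on 1 anterior UMI, and -3.71) and Dkk1 (-4.65, -9.96 to -2.15, and -4.17, -6.47 to -2.60, on 1 and 3 anterior UMIs). Also posterior were the FGF target Etv4 (-1.97 and -2.29) and the phosphatase Dusp4 (-3.11 and -2.07). Leaving out T, 9 of 10 posterior genes tested were lower in the anterior class and 0 higher (median -1.98 and -2.83, with genes at 0 taken at the floor), and of 13 genes of the FGF pathway 8 were lower and 1, Fgf18, higher. These counts are descriptions, since genes such as Fgf4 and Wnt3a met the UMI minimum through the posterior class alone.

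**Figure D2:**
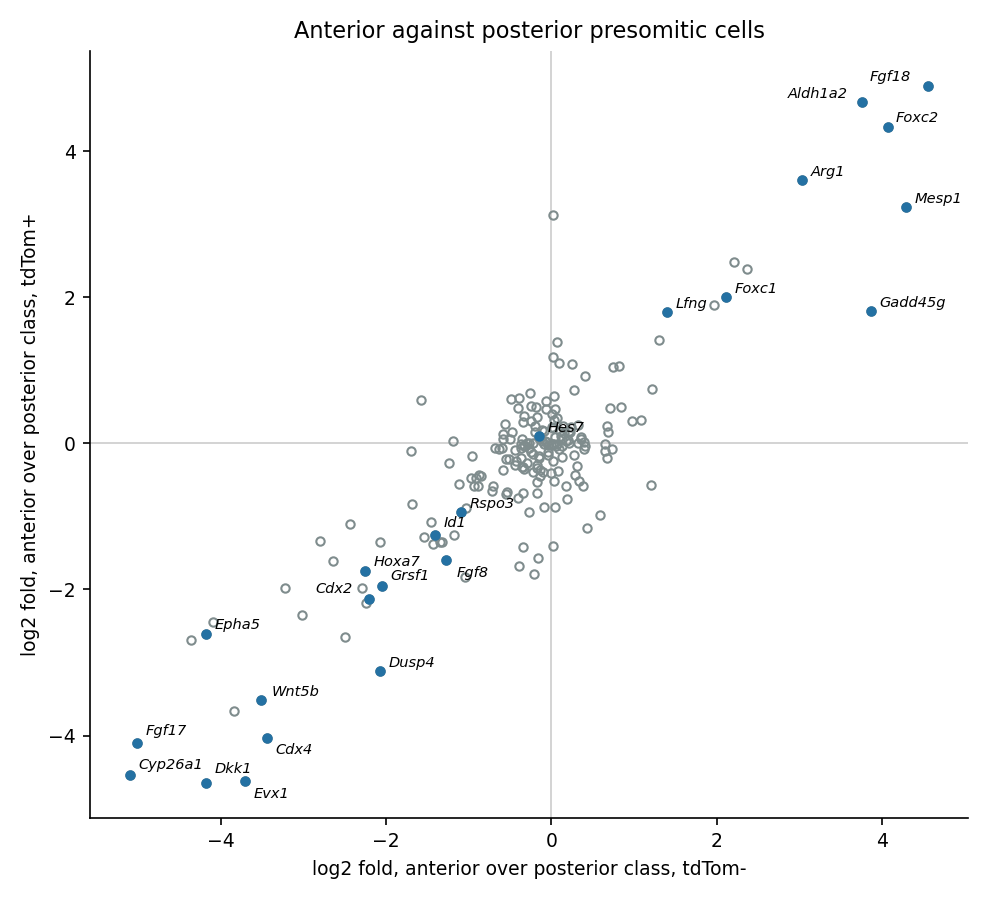
Log2 fold of anterior over posterior PSM cells in tdTom- (x) and tdTom+ cells (y), for the listed and named genes with at least 100 UMIs, with filled points for those with a label. Aldh1a2 and Fgf18 lie at the top right, Cyp26a1 and Fgf17 at the bottom left, Lfng between (1.80 and 1.40) and Hes7 near 0 on both axes; Fgf17 in tdTom+ is drawn at its floor.

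Clock genes did not follow one rule along this axis. Hes7 was at 226 CPM in anterior and 211 in posterior tdTom+ cells (0.10, -0.32 to 0.50) and at 261 and 288 in tdTom- cells (-0.15, -0.41 to 0.11), a flat profile, although Hes7 also chose the cells and the values became 0.56 and -0.52 with class limits of 3 UMIs. Lfng was at 65.7 against 18.9 CPM in tdTom+ cells (1.80, 0.85 to 2.71) and at 86.9 against 33.0 in tdTom- cells (1.40, 0.84 to 1.95), so it was higher at the front in both. Nrarp (-0.03 and 0.41) and Dll1 (0.06 and 0.36) had intervals that held 0 in both fractions, but for Nrarp in tdTom- the interval lay above 0 with a sum of at least 12 (0.83, 0.26 to 1.39) or 5 (0.49, 0.0036 to 0.97) and with cells chosen by Tbx6 and Dll3 without Hes7 (0.54, 0.01 to 1.05). Hes5 was at 0.61 (-0.21 to 1.37) and -0.49 (-1.15 to 0.12), both intervals holding 0, and the tdTom- value turned to 0.17 with a sum of at least 12 (beside 1.35, 0.41 to 2.22, in tdTom+) and to 0.13 with cells chosen without Hes7. Of 6 Notch-arm genes tested 1 was higher in anterior cells, Lfng, and 1 lower, Id1, a regulator that blocks other helix-loop-helix factors, at 102 against 244 CPM in tdTom+ cells (-1.26, -1.87 to -0.70) and 93.6 against 248 in tdTom- cells (-1.41, on 56 and 466 UMIs). In the Wnt arm 1 of 7 genes was lower in anterior cells and 0 higher, and in the FGF arm 3 of 5 were lower. Those 3 were Dusp4, the ephrin gene Efna1 (-2.45, -5.53 to -0.53, and -4.09, -7.16 to -2.20, on 2 and 2 anterior UMIs) and the FGF inhibitor Spry4 (-1.37, -3.30 to 0.07, on 4 anterior UMIs, and -1.44, -2.55 to -0.49), whose interval held 0 in tdTom+ cells.

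Hox genes, whose order along the chromosome mirrors where on the body axis they act, were read by paralog group. Summed over clusters, group 1 differed between anterior and posterior PSM cells by -0.19 and -0.37, group 4 by -0.38 and -0.44, group 7 by -1.08 and -1.54 and group 9 by -1.19 (-1.71 to -0.71) and -1.49 (-1.84 to -1.15). By their point values, groups 6, 7, 8 and 9 were each lower at the front by more than groups 1, 3 and 4 were. Intervals did not part them all in tdTom+ cells, where group 8 (-0.89, -1.41 to -0.42) overlapped group 4 (-0.81 to 0.03). Group 6 had only 4 and 5 anterior UMIs. Group 2 (0.26, -0.26 to 0.74, and 0.32, 0.0062 to 0.63) and group 5 (1.26, 0.08 to 2.34, and 0.14, -0.89 to 1.09) were above 0 there. Group 9 summed to 316 and 380 CPM in posterior PSM, 139 and 135 in anterior PSM, 34.0 and 43.5 in somitic and 415 and 521 in caudal cells, a descending series from tail to somite in both fractions. Over somitic cells the PSM excess was 1.08 and 1.04 for group 1, 2.01 and 1.64 for group 4, 2.80 and 2.76 for group 7 and 3.11 and 2.86 for group 9. It did not rise in strict order. Groups 2 (0.31 and 0.55) and 5 (0.63 and 0.49) lay below group 1, and group 8 (3.18 and 3.15) lay above group 9. Groups beyond were at the limit of detection, with 5 and 6 UMIs of group 10, 0 and 1 of group 11 and 0 and 2 of group 13 over all members. The Cdx factors, which activate Hox genes, followed, with Cdx4 at 40.1 against 655 CPM in anterior and posterior tdTom+ cells (-4.03, -5.04 to -3.18) and 68.5 against 743 in tdTom- cells (-3.44, -3.92 to -2.99), and Cdx2 at -2.14 and -2.21. Cdx1 was higher in anterior cells by 1.08 in tdTom+ and by 0.25 (-0.09 to 0.57) in tdTom- cells.

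**Figure D3:**
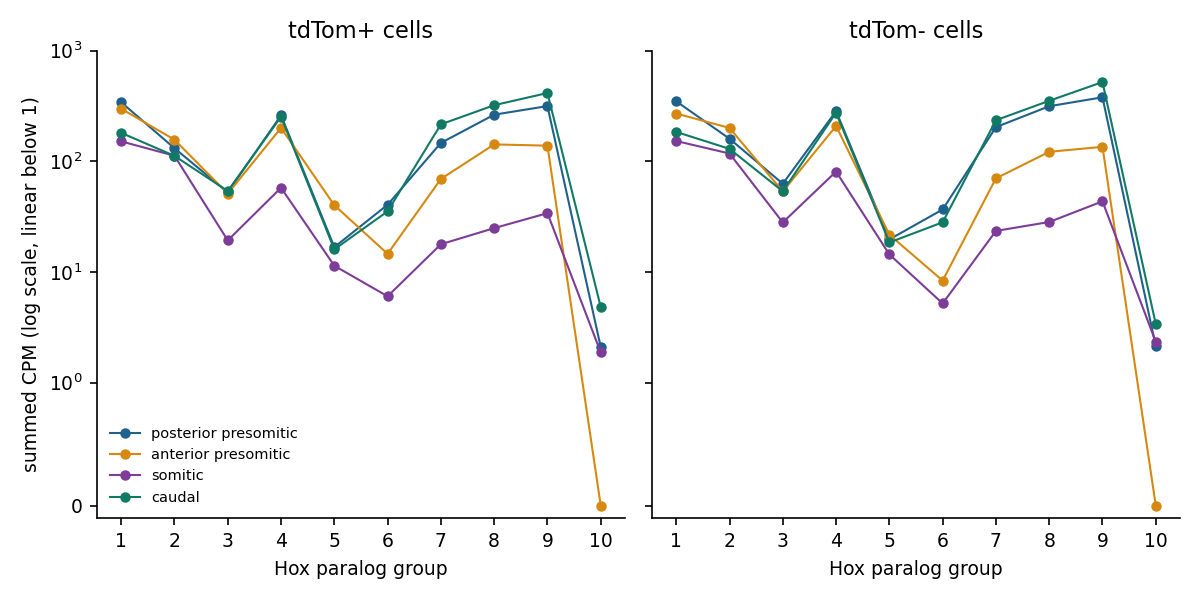
Summed CPM of each Hox paralog group (log scale, linear below 1) in posterior and anterior PSM, somitic and caudal cells of the tdTom+ (left) and tdTom- fraction (right). Group 9 falls from 415 and 521 CPM in caudal cells through 316 and 380 and 139 and 135 in posterior and anterior PSM to 34.0 and 43.5 in somitic cells, while group 1 differs by less between the same cells.

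The unspliced counts give a view of fresh transcript. Over all genes 13.05% and 14.08% of PSM UMIs were unspliced. Of Hes7, 61 of 598 UMIs (10.2%, 7.89 to 12.9) in tdTom+ and 78 of 1027 (7.59%, 6.05 to 9.39) in tdTom- members were unspliced, in 42 and 48 cells. Cells with and without an unspliced Hes7 UMI had the same median of spliced ones (4 and 4 in tdTom+, 4.5 and 4.5 in tdTom-), a description only, since spliced Hes7 helped to choose the cells. By class the unspliced share of Hes7 was 11.2% (8.03 to 15.0) and 9.67% (7.42 to 12.3) in posterior cells and 7.46% (2.47 to 16.6) and 3.11% (1.02 to 7.10) in anterior cells, and only in tdTom- did the intervals part. Lfng had 1 and 3 unspliced UMIs, too few to read.

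Other PSM genes covered the whole range of unspliced shares. Lef1 was unspliced in 49.4% (47.1 to 51.7) and 54.0% (52.1 to 55.9), the ephrin receptor Epha4 in 53.9% and 57.8% and Wnt3a in 51.8% and 60.3% of UMIs, Dll1 in 16.4% and 15.4% and Dll3 in 6.95% and 5.72%. Of 71 listed genes with enough UMIs, 5 had intervals that parted between the fractions, Lef1 among them (54.0% and 56.1% in the rest). How many of all genes part in this way was not counted, and over all genes the share was also lower in tdTom+. Rspo3 was at 19.3% (17.4 to 21.4) and 26.3% (24.6 to 28.0), a gap that was narrower in the rest of the embryo (23.3% and 26.2%). Fn1, which encodes fibronectin, was at 24.6% (21.8 to 27.5) and 31.2% (28.8 to 33.6), with 25.3% and 25.2% in the rest. Zeb2, a zinc finger repressor, was at 85.4% (82.0 to 88.4) and 92.3% (90.2 to 94.0), with 87.6% and 88.2% in the rest. Aldh1a2 went the other way, at 15.9% (10.7 to 22.3) and 6.78% (4.35 to 10.01), on 27 and 23 unspliced UMIs, with 10.4% and 11.0% in the rest. Tbx6 was at 3.70% and 2.46%. Msgn1, Nrarp and Hes5 had 0 unspliced UMIs in members, but Msgn1 and Nrarp had 0 in the rest too, and Hes5 only 1 and 1. Their 0 thus says nothing about PSM cells, and such genes among the 71 could not part. How many UMIs a gene gives from introns depends on its introns and on the A-rich stretches that prime the reads, so these shares compare sets of cells and not genes.

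Between the fractions, the comparison that the sort was made for, few genes of PSM cells differed by much. Of 5699 genes with at least 100 UMIs in members of both fractions together, 9 (0.158%) were past 2-fold higher in tdTom+ cells and 25 (0.439%) past 2-fold lower, and 5423 (95.2%) lay within 0.5 on the log2 scale, around a median of -0.01. The counting interval excluded 0 in 829 genes, a count that is raised where UMIs cluster in few cells, since the interval leaves that spread out. Dll1 differed by 0.01 (-0.22 to 0.24), Msgn1 by -0.04 (-0.47 to 0.38), Rspo3 by -0.08 (-0.18 to 0.03) and Cited1 by -0.07 (-0.13 to -0.0030). Of the clock lists, 0 of 6 genes of the Notch arm, 0 of 7 of the Wnt arm and 0 of 5 of the FGF arm were past 2-fold, with medians of -0.27, 0.09 and -0.03. With so few of all genes past 2-fold, a count of 0 in lists of this size says nothing particular about them. The same count of 0 held for 11 posterior genes (median -0.04), 14 of the FGF pathway (-0.07), 16 of the Wnt pathway (-0.05), 7 of retinoic acid (-0.06), 19 Hox and Cdx genes (-0.12), 39 S-phase genes (-0.01) and 49 G2/M genes (-0.07).

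Gata1 itself can check little in a tissue that barely uses it. It had 2 UMIs in 2 of 118 tdTom+ cells and 4 UMIs in 4 of 186 tdTom- cells, and reads near the 3' end of a transcript need not show a frameshift in exon 4. Of its partners in blood, Lmo2 was at 123 and 104 CPM and Zfpm1 at 30.7 and 26.0 in PSM cells. Tal1 (13.1 and 1.16 CPM) and Gata2 (11.0 and 0.866) were higher in tdTom+ members, beside the 3 tdTom+ members that met the endothelial rule. Without them Tal1 had 20 instead of 32 UMIs (4 in tdTom- members) and Gata2 17 instead of 27 (3 in tdTom-). Without those 3 cells the tdTom+ members held 2 instead of 19 UMIs of the endothelial cadherin Cdh5, 3 instead of 20 of Esam and 0 instead of 5 of the endothelial kinase Tie1 (1, 1 and 1 in tdTom- members). Kdr, a receptor of blood vessel precursors, still had 22 UMIs in 8 tdTom+ cells (40 in 11 with them, 4 in 4 tdTom- cells), and Plvap, a protein of vessel walls, 11 in 6 (27 in 9 with them, 2 in 2 tdTom- cells). With them in, the endothelial list summed to 51.9 CPM in tdTom+ and 4.04 in tdTom- members.

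In the Notch arm 4 of 6 genes were below 0 and 2 above, where 3022 of all 5699 genes were below 0. Hes7, part of the rule, was lower in tdTom+ cells by -0.32 (-0.48 to -0.17), Lfng by -0.54 (-0.96 to -0.13), Hes5 by -0.47 and Nrarp by -0.22, while Id1 was at 0.06 and Hes1 at 0.05. Lfng (-0.68) and Hes5 (-0.98) were lower in the rest of the embryo too. In the list of determination front genes 8 of 9 were below 0 (median -0.13), though only Meox1 passed 2-fold. Meox1 was at 30.7 CPM in 16 tdTom+ cells and 81.7 in 39 tdTom- cells, or -1.41 (-1.80 to -1.04), and it differed by -0.37 in the rest of the embryo. Tcf15 differed by -0.74 (-1.03 to -0.46), Aldh1a2 by -0.64 (-0.94 to -0.35), Fgf18 by -0.92 (-1.40 to -0.46) and Arg1 by -0.78 (-1.04 to -0.53). Meox1 and Tcf15 set the anterior class and the other 3 were higher in it, and that class made up 11.9% of tdTom+ and 17.2% of tdTom- members. The part of that share in these values was not tested.

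Most listed genes past 2-fold were imprinted. In the imprinted list, genes read from only the maternal or only the paternal copy, 3 of 18 were higher and 6 lower in tdTom+ PSM cells, and the median of 0.30 differed in sign from the larger count. Grb10, an adaptor that restrains growth signalling, had 11 UMIs in 8 tdTom+ cells and 1000 UMIs in 182 tdTom- cells (4.50 and 289 CPM, log2 -6.01, -7.01 to -5.16). Cdkn1c, a brake on the cell cycle, had 3 against 284 UMIs (-6.06, -8.35 to -4.50). These transcripts were near absent from the injected cells and broadly present in the host cells. Phlda2 was at 44.6 and 438 CPM (-3.30, -3.59 to -3.02), Igf2r, the receptor that clears IGF2, at 10.2 and 27.7 (-1.44, -2.14 to -0.79), H13 differed by -1.37 (-1.80 to -0.95) and the growth factor Igf2 by -1.002 (-1.31 to -0.70), a difference that was not past 2-fold without Scrublet calls. On the higher side stood Mest at 381 and 154 CPM (1.31, 1.16 to 1.47), Impact at 130 and 47.9 (1.43, 1.16 to 1.71) and Peg10 at 42.1 and 17.9 (1.23, 0.76 to 1.71).

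In the rest of the embryo these imprinted genes differed in the same direction. There Grb10 was at -5.56, Cdkn1c at -6.21, H13 at -1.51, Igf2 at -0.75, Impact at 1.44 and Peg10 at 1.22, within the intervals of PSM cells. Outside those intervals lay Igf2r, at -2.41 the further from 0 in the rest, and Phlda2 (-2.69) and Mest (0.99), which were nearer to 0 there. Of the 9 higher genes 9 and of the 25 lower genes 25 kept their sign in the rest, and 4 and 16 were past 2-fold there too.

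The clone is male, and no source used here says that the host embryos were chosen by sex. Xist, the RNA that coats the inactive X chromosome of female cells, had 5 UMIs in 1 tdTom+ cell and 1307 in 110 of 186 tdTom- cells (-7.53, -9.15 to -6.30). The Y-linked Ddx3y (36.8 and 14.4 CPM, log2 1.35, 0.83 to 1.88) and Eif2s3y (1.01, 0.54 to 1.49, not past 2-fold without Scrublet calls) were higher in tdTom+ cells, and so was Erdr1, of the region that X and Y share, at 225 and 73.4 CPM (1.62, 1.40 to 1.84). Car2, a carbonic anhydrase, was at 87.5 and 17.6 CPM (2.31, 1.90 to 2.75), with 66 of 214 UMIs in 1 cell and 1.83 when the highest cell of each fraction was left out, and it was no longer past 2-fold without the cells that Scrublet called. Prkar2b (1.18) and Ccng1 (1.03) completed the 9, and without the highest cells neither was past 2-fold, at 0.95 and 0.98.

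Globin transcripts were lower in tdTom+ PSM cells, with Hbb-y at -3.24 (-3.86 to -2.68, in 24 against 151 cells) and Hba-x at -2.48 (-2.72 to -2.25, in 69 against 184 cells). Hbb-bh1 differed by only -0.41, in 88 and 179 cells. The rule capped globins, so these values are descriptions, and 85.9% of all cells of the tdTom+ library but 80.7% of the tdTom- library lay under the cap. The part of free globin RNA from red blood cells in these values was not tested.

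Akr1e1, an aldo-keto reductase, was lower in tdTom+ PSM cells (-1.82, -2.61 to -1.10) and in the rest (-1.88). Of the lower genes in no list, named here after their values were seen, Igfbp5 (-1.16) had 65 of its 111 tdTom- UMIs in 1 cell and was at -0.63 without the highest cells. H2-Ab1 (-1.02), Snapc2 (-1.07) and Atf5 (-1.01) were lower by less in the rest, at -0.46, -0.07 and -0.13. H2-Ab1 was not past 2-fold without the highest cells, without the members that met the endothelial rule or without Scrublet calls, and Snapc2 and Atf5 were not without the last.

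**Figure D4:**
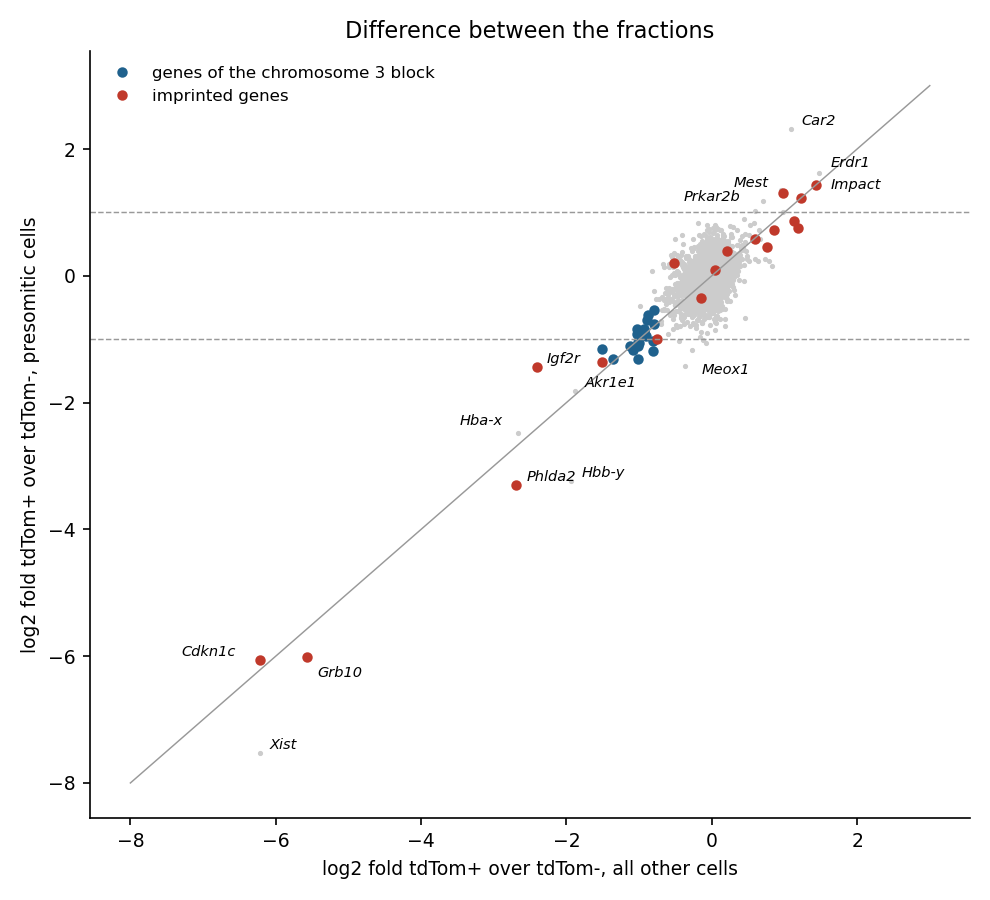
Log2 fold of tdTom+ over tdTom- in all other low-globin cells (x) and in PSM cells (y) for the 5699 genes tested in PSM cells, with imprinted genes in red, genes of the chromosome 3 block in blue, dashed lines at 2-fold and the line of equality. Most genes lie near 0, Xist, Cdkn1c and Grb10 lie below -6 in PSM cells, and Meox1 is lower in PSM cells (-1.41) than in the others (-0.37).

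A run of neighbouring genes on chromosome 3, noticed after the values were seen, made up 10 of the 25 lower genes. It was taken as the longest run of genes at or below -0.5 in the rest, so values there are a description. It spans 29 genes with at least 2000 UMIs in the rest of the embryo, from Zmat3 to Sclt1 (chromosome 3, 32334792 to 41742514, GRCm38), a stretch of 9.41 Mb. All 20 of them that could be tested in PSM cells were lower in tdTom+ cells with intervals below 0, with a median of -0.99 (-1.31 to -0.54). Together they had 2483 UMIs in tdTom+ and 6898 in tdTom- PSM cells, 1015 and 1992 CPM, so that tdTom+ cells held 50.9% of the tdTom- level (-0.97, -1.04 to -0.91). The stretch holds Sox2 (-1.15, -1.67 to -0.65, not past 2-fold without Scrublet calls), the mitochondrial complex I gene Ndufb5 at 179 and 372 CPM (-1.05, -1.21 to -0.89), the chromatin remodelling subunit Actl6a (-1.17), the lipid flippase Atp11b (-1.31), the membrane-binding Anxa5 (-1.10) and Jade1 (-1.31).

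The position of the edges is known only to within the next genes with as many UMIs, Skil 1.21 Mb before and Pabpc4l 4.70 Mb after. Skil differed by -0.10 in PSM cells and Pabpc4l by -0.21. Of the 20 such genes on each side, 27 could be tested in PSM cells and had a median of 0.04, and in the rest the lowest of all 40 was at -0.63. Somitic cells (-1.02), caudal cells (-1.01) and the rest (-1.01) had a like median over the stretch, which their values helped to choose, as somitic and caudal cells are part of the rest, and on no other chromosome did more than 3 such genes in a row lie below -0.5 in the rest. Copy number of the stretch in the clone was not measured here, and its part in these values was not tested.

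**Figure D5:**
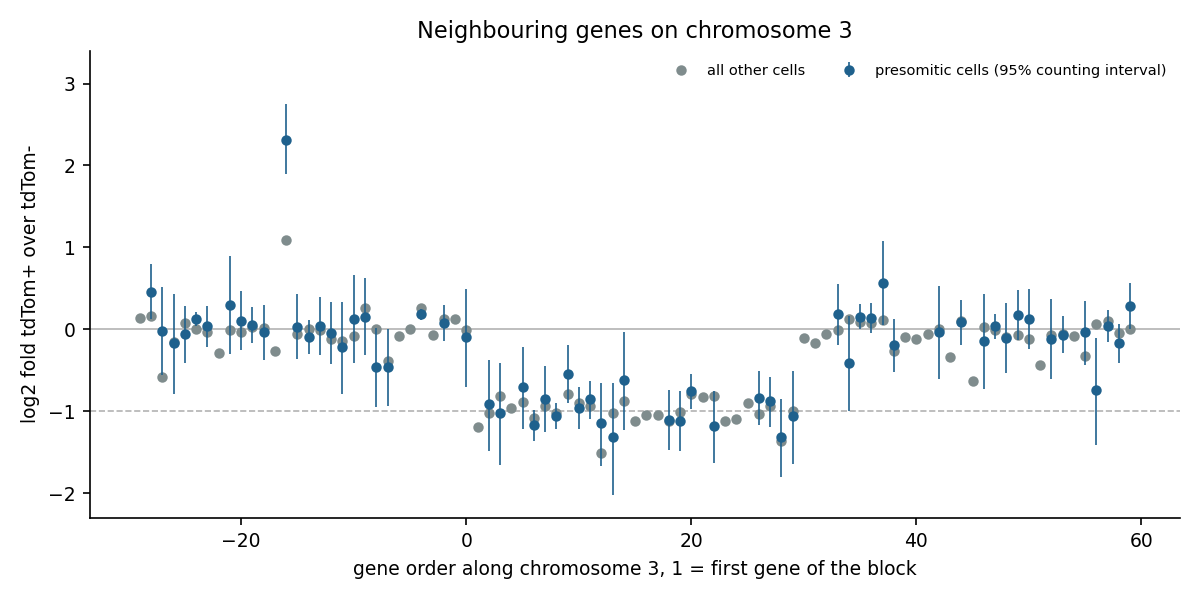
Log2 fold of tdTom+ over tdTom- for neighbouring genes in their order along chromosome 3, in PSM cells (blue, with 95% counting intervals, where at least 100 UMIs) and in all other low-globin cells (grey), with the dashed line at -1. Genes 1 to 29, Zmat3 to Sclt1, lie near -1 in both sets (median -0.99 and -1.01), and the genes on either side have medians near 0 (0.04 and -0.01), with single genes away from it such as Car2 at 2.31.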

How the data were processed

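Per the submitters' processing notes, the authors mapped the reads of both libraries to mm10 (GRCm38) with Cell Ranger 3.0.2, and by the study's methods kept barcodes that differed from free RNA with emptyDrops, marked low-complexity cells with mixture models, identified doublets, and took spliced and unspliced matrices from velocyto. The deposited tables hold raw UMI counts of 29453 genes in 18233 cells (0 values were not whole) and, per cell, the authors' percent of mitochondrial counts. The study reports fewer cells that passed quality control and were given a cell type. All deposited cells were used here, also in the denominators of shares.

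UMIs were summed over the member cells of a fraction and scaled to CPM. Log2 folds have exact conditional 95% intervals and shares have Clopper-Pearson intervals, all for counting error only. Genes were tested for size with at least 100 UMIs over both sets, and past 2-fold is a rule of size and not a statistical test. Groups at 0 were taken at 3 counts. Genes were named from fixed lists or as the 10 per direction with the largest difference (20 over the rest), other names being said to be chosen later. Members and lists were chosen with earlier results of these data known. Counts were simulated for tdTom+ over tdTom- PSM cells (5699 genes) with counting error only. There 95.1% of intervals held the true fold, and all 100 genes changed 4-fold passed. Of 100 genes changed 2-fold, 98% had intervals with the true sign, and 0.0182% of 5499 genes left as they were passed 2-fold. Spread between cells was not simulated, so these values check the calculation and do not tell how the intervals hold in real cells.

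Doublets were called per library with Scrublet in scanpy 1.11.5. Thinning drew 8000 UMIs per cell. Gene positions came from GENCODE vM21 (29194 of 29453 IDs matched) and promoter windows from RefSeq, both on GRCm38. Alternatives were another sum for the rule, cells chosen without Hes7, thinning, Scrublet calls left out, other scaling, filters and cell weights, the layers summed, and another class limit. Python 3.11.15, numpy 2.4.6, scipy 1.17.1, pandas 2.3.3 and matplotlib 3.10.9 were used.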

Additional observations from a re-analysis of the deposited data

How the results depend on the processing

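Signs of folds were followed through the alternatives only for clock genes between anterior and posterior cells. Among these, no fold whose interval excluded 0 under the rule and class limits as given changed sign. For other folds, such as those of Hox and imprinted genes, this was not tested. Some folds along the axis whose intervals held 0 did, such as Hes7 in tdTom+ (0.10 to -0.06 under the looser rule and -0.03 without Scrublet calls) and Hes5 in tdTom- (-0.49 to 0.17 under the stricter rule and 0.13 with cells chosen without Hes7). The share of PSM cells moved with the rule, in tdTom+ to 0.701% with a sum of at least 12, 1.93% with a sum of at least 5 and 0.291% after thinning, and in tdTom- to 1.22%, 2.51%, 0.520% and, over low-globin cells only, 2.49%. The tdTom+ share was the lower one in each of these. The 9 higher genes between fractions became 2 under the stricter and 16 under the looser rule, 16 with both layers summed, 24 with a minimum of 50 UMIs, 4 with 200 and 3 after thinning, and the 25 lower genes became 44, 15 and 14 with 50 UMIs, 200 UMIs and thinning. The genes tested changed as well, from 5699 to 4296 under the stricter and 6343 under the looser rule. They were 7038 with both layers summed, 7405 with 50 UMIs, 3931 with 200 and 3445 after thinning. The counts are thus not out of the same total. The unspliced share of Hes7 in tdTom- was 5.89% and that of Lfng in tdTom+ 0% under the stricter rule, and Hes7 between anterior and posterior cells was at 0.56 and -0.52 with class limits of 3 UMIs, so its flat profile depends on that limit. Without Scrublet calls 6 of the 9 higher genes (not Car2, Eif2s3y and Prkar2b) and 20 of the 25 lower (not Atf5, H2-Ab1, Igf2, Snapc2 and Sox2) were still past 2-fold, 5 and 18 with the minimum of 100 UMIs. As alternatives chosen after seeing the data, leaving out the members that met the endothelial rule kept 8 and 22 of them past 2-fold (not Prkar2b, H2-Ab1, Sclt1 and Zfp639), 7 and 22 with the minimum of 100 UMIs, which Ccng1 then missed, and leaving out the highest cell of each gene 7 and 23 (not Ccng1, Prkar2b, H2-Ab1 and Igfbp5). The cause of these moves was not tested, except that thinning and stricter rules leave fewer UMIs or cells. No replicate could be left out, since each fraction is 1 library. No paired analysis was possible because no result comes from a test and each fraction has 1 library.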

Other observations

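Cell cycle genes differed by little between PSM cells and their neighbours, with the lowest S-phase medians in PSM cells. After thinning to 8000 UMIs, the median PSM cell held 44 and 45 UMIs of the S-phase list (tdTom+ and tdTom-), somitic cells 48 and 48 and caudal cells 52 and 50. For the G2/M list the medians were 71.5 and 73 in PSM, 69 and 72 in somitic and 66.5 and 73 in caudal cells. The quartiles of all sets overlapped. Of the 42 S-phase genes, 24 were lower and 5 higher in PSM than in caudal cells in both fractions, 0 of them past 2-fold. Their median log2 fold was -0.12 and -0.09. Over all 7810 genes 2666 were lower and 2365 higher.

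Genes of the PSM differed in how evenly cells held them. The Fano factor, the variance over the mean of thinned UMIs across 116 and 182 members, was 1.08 and 1.08 for Tbx6, close to counting error alone, and 1.73 and 1.67 for Hes7. Tbx6 is bounded below by the rule and Hes7 enters it through the sum, so their values do not tell how evenly cells held them. The factor was 2.04 and 2.00 for Hes5, 3.08 and 4.40 for Cyp26a1, 2.35 and 3.14 for T, 6.14 and 5.41 for Tcf15 and 2.91 and 4.65 for Mesp1. Cited1 (3.60 and 4.67) and Rspo3 (2.20 and 2.01) were uneven as well. Lfng was uneven in tdTom- (1.69) and less so in tdTom+ cells (1.12). Across the same cells, T ran with Fgf17 (Spearman 0.42 and 0.53) and Cyp26a1 (0.39 and 0.54) and against Foxc2 (-0.29 and -0.40). These are descriptions over cells that share a library and were thinned to the same depth. Hes7 and Lfng were at 0.20 and 0.10, too weak in sparse counts to read.

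Of the 18 imprinted genes tested between the fractions in PSM cells, those not past 2-fold were above 0 except Gnas, at -0.36 (-0.43 to -0.28). Peg3 was at 0.86, Slc38a4 at 0.75, Kcnq1ot1 at 0.72, Nnat at 0.57, H19 at 0.46, Snrpn at 0.40, Ppp1r9a at 0.20 (-0.33 to 0.73) and Ndn at 0.09 (-0.15 to 0.33) on the log2 scale.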
